A study of Mus musculus with 8 samples.

Results

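The protamines, the transition proteins and the linker histones made in spermatids form a set of 7 mouse genes, *Tnp1*, *Tnp2*, *Prm1*, *Prm2*, *Prm3*, *Hils1* and *H1fnt*, chosen by name among the 23343 genes of the RNA-seq tables. RNA, labelled as poly(A), was measured in 2 stages, spermatocytes at pachytene (PS) and spermatids with round nuclei (RS), with 2 samples per stage. It came from adult C57BL/6 mice that lack both *Rnf8* and *Scml2* (*Rnf8;Scml2*-dKO). H3K27ac, an acetylation of histone H3 found at active promoters and enhancers, was mapped by ChIP-seq in PS and RS of adult wild-type C57BL/6 mice, again with 2 samples per stage. The RNA and the H3K27ac therefore came from different genotypes, and wild-type RNA was not analysed here. Cells were separated from testes by sedimentation through BSA, which enriches a stage without sorting it. For RNA this was done on a small scale that yields both stages from the testes of 1 dKO male. The H3K27ac lists took part in the description of the 7 genes through intervals that carried their names or lay within 2 kb of their start sites, 11 to 17 of the 41095 to 74919 intervals of a sample.

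In the spermatid, the chromatin of the round nucleus is rebuilt for the sperm head. Transition proteins displace most histones and are in turn replaced by protamines, small arginine-rich proteins that compact sperm DNA, while spermatid-specific linker histones act in the condensing nucleus. The mRNAs of protamines and transition proteins are transcribed in round spermatids, stored as ribonucleoprotein particles and translated later, in elongating spermatids.

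Of the 7 genes, 4 lay side by side on chromosome 16 and were transcribed from the same strand. In mm10, *Prm1* (NM_013637) occupied chr16:10796332-10796823, *Prm2* (NM_008933) chr16:10791381-10792097, *Prm3* (NM_013638) chr16:10790508-10790914 and *Tnp2* (NM_013694) chr16:10787935-10788655, all on the minus strand. The start sites of *Prm1* and *Tnp2* were 8168 bp apart, and those of *Prm3* and *Prm2* only 1183 bp. The other 3 genes were alone: *Tnp1* (NM_009407) at chr1:73015075-73015899 on the minus strand, *Hils1* (NM_018792) at chr11:94967661-94968456 on the plus strand and *H1fnt* (NM_027304, named H1f7 in the RefSeq table) at chr15:98255982-98257307 on the minus strand. RefSeq gives 2 exons each to *Tnp1*, *Tnp2*, *Prm1* and *Prm2*, and 1 exon each to *Prm3*, *Hils1* and *H1fnt*. *Hils1* sits on the opposite strand inside *Sgca* (sarcoglycan alpha), and the library kit did not mark strand, so reads of the pair over the shared stretch cannot be told apart.

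The promoters are shown because the 7 genes rose together and because H3K27ac lay over each of them. Each sequence is the 150 bases upstream of the RefSeq start site (GRCm38.p6, the coordinates of mm10), written in the direction of transcription. Capitals mark matches, on either strand, to the strings named in the next paragraph. The match of *Hils1*, the TGACG match of *H1fnt* and 1 of the AGGTCA matches of *Prm2* lie further upstream and are not shown. The RefSeq start of *Hils1* lies 68 bp upstream of the one in the count tables and that of *Prm2* 8 bp upstream.
Prm1, chr16:10796824-10796973, minus: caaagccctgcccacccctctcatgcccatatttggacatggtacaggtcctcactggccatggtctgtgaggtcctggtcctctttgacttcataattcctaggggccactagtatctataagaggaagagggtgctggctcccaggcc
Prm2, chr16:10792106-10792255, minus: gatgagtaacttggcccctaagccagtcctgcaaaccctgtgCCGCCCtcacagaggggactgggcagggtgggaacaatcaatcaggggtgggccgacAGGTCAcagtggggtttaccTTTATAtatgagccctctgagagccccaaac
Prm3, chr16:10790915-10791064, minus: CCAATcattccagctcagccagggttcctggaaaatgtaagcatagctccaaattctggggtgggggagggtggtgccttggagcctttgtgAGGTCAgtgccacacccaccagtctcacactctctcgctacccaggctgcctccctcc
Tnp2, chr16:10788656-10788805, minus: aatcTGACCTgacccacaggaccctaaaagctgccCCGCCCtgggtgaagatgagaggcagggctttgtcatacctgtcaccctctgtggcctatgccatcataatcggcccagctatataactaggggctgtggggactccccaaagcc
Tnp1, chr1:73015900-73016049, minus: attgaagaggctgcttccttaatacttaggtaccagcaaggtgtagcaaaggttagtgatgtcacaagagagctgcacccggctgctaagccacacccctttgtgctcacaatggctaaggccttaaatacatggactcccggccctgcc
Hils1, chr11:94967443-94967592, plus: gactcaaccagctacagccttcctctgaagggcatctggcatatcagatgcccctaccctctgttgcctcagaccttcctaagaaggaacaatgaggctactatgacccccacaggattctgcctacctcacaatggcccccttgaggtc
H1fnt, chr15:98257308-98257457, minus: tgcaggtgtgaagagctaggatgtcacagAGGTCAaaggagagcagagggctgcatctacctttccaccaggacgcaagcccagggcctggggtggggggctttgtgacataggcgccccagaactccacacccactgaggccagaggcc

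No searched string was found in all 7 of the upstream windows of 250 bases. Only exact matches were counted, so variants that differ from a string by a base were not looked for. TGACGTC, the first letters of a full cAMP response element, was in 0 of 7 and in 2.78% of all 32851 RefSeq windows, and its shorter core TGACG was in 1 of 7 (*H1fnt*) against 17.8%. TATAAA was in 1 of 7 (*Prm2*, on the opposite strand, ending 26 bp upstream of the start) against 12.4%. CCAAT was in 2 of 7 (*Prm3* and *Hils1*) against 33.8%, and GGGCGG in 2 of 7 (*Tnp2* and *Prm2*) against 32.7%. AGGTCA, a half-site of nuclear receptors, was in 4 of 7 (*Tnp2*, *Prm2*, *Prm3* and *H1fnt*) against 14.02%, and having been added after these sequences were read it is given as a description. The GC content of the windows was 45.6% to 56.4%, with a median of 52.4% over all windows.

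In RS, the mRNAs of *Prm2*, *Prm1*, *Tnp1* and *Tnp2* were the 4 highest of all genes per length. Their level is given as RPKM, deposited reads scaled to transcript length and library size. *Prm2*, the protamine that is made as a precursor and then processed, had 102 and 189 RPKM in the PS samples and 3747 and 4408 in the RS samples, and ranked first in both RS samples. *Prm1*, the protamine found in all mammals, had 104 and 166 RPKM in PS and 3576 and 3640 in RS, where it ranked second. Both RS samples were far above both PS samples for each protamine, and the second PS sample was above the first.

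*Tnp1*, transition protein 1, had 108 and 170 RPKM in PS and 2596 and 2876 in RS, the third rank in both RS samples. *Tnp2*, transition protein 2, had 82.2 and 163 RPKM in PS and 2588 and 2392 in RS, the fourth rank. The PS and RS values of the transition proteins did not overlap.

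The linker histones were expressed at lower levels. *Hils1*, a spermatid linker histone-like protein, had 58.5 and 81.8 RPKM in PS and 688 and 571 in RS, ranks 40 and 48 among all genes in RS. *H1fnt*, a linker histone placed at the apical pole of the spermatid nucleus, had 19.4 and 32.6 RPKM in PS and 363 and 352 in RS. *Prm3*, which lies between *Prm2* and *Tnp2* but encodes an acidic protein, was the lowest of the 7 at 14.2 and 16.8 RPKM in PS and 225 and 242 in RS. For these 3 genes too, every RS value was above every PS value.

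**Figure D1:**
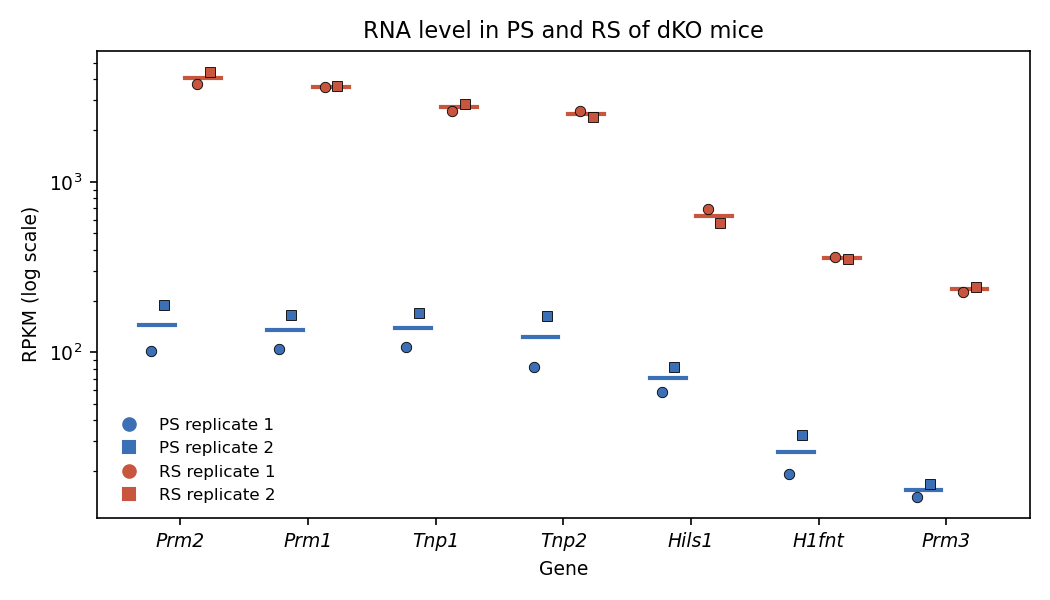
RNA level (RPKM, log axis) of the 7 genes in PS (blue) and RS (red) of dKO mice; circles are replicate 1, squares replicate 2, and the horizontal lines the mean of 2 samples. The RS values of *Prm2*, *Prm1*, *Tnp1* and *Tnp2* lie between 2392 and 4408 RPKM, those of *Hils1*, *H1fnt* and *Prm3* between 225 and 688, and in PS the second replicate is above the first for each gene.

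All 7 genes were called higher in RS by edgeR's quasi-likelihood test (Benjamini-Hochberg adjusted p under 0.05 over the 14647 genes tested and a change over 1.5-fold), where 30.4% of all genes tested were called higher and 27.6% lower. The members' median log2 fold change was 4.34, against 0.01 over all genes tested. Of the 7, 2 protamine genes changed most: *Prm2* by 4.84 ± 0.30 (log2 fold change ± SE, adjusted p = 5.08e-06) and *Prm1* by 4.77 ± 0.23 (adjusted p = 3.29e-06), ranks 55 and 61 among all fold changes. The transition proteins followed, *Tnp2* at 4.38 ± 0.30 and *Tnp1* at 4.34 ± 0.23, with adjusted p of 8.02e-06 and 3.49e-06. Without the second PS sample *Tnp2* was at 5.03 and *Prm2* at 5.43, and without the first PS sample *Tnp2* was at 3.95, below *Tnp1* at 4.02. *Prm3* rose by 3.95 ± 0.18 and *H1fnt* by 3.82 ± 0.24, and *Hils1* rose least, by 3.20 ± 0.20 (adjusted p = 5.44e-06). Non-overlap of RPKM with RS above PS, seen for all 7, was found for 40.9% of the genes tested.

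**Figure D2:**
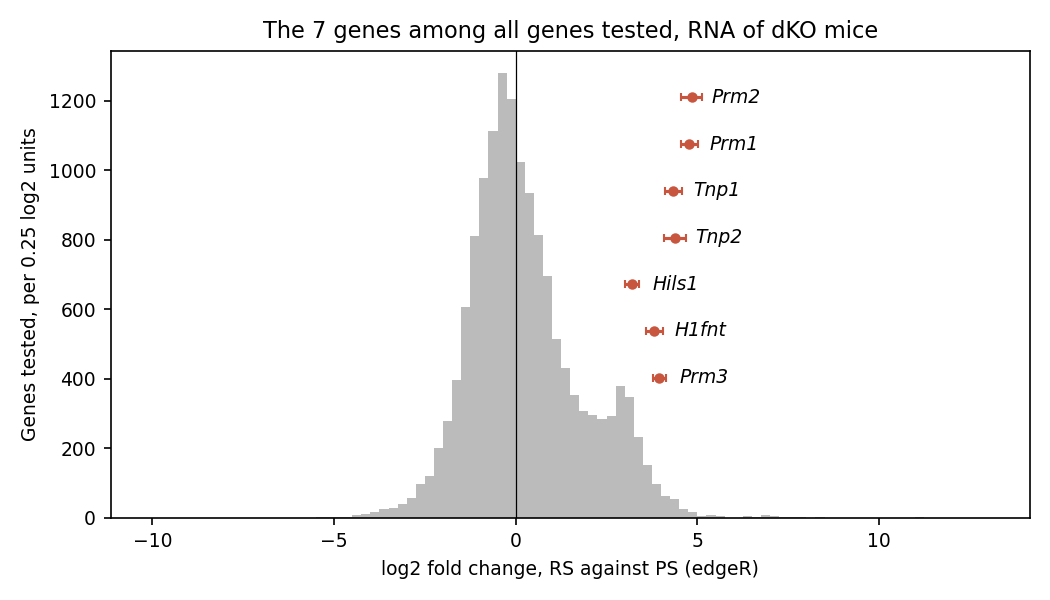
Distribution of log2 fold changes of RS against PS (edgeR) over the 14647 genes tested (grey bars, genes per 0.25 log2 units), with the 7 genes as red points and their standard errors as bars; the height of a point carries no value. The points lie between 3.20 (*Hils1*) and 4.84 (*Prm2*), in the right tail.

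Expressed as a ratio of mean RPKM, RS exceeded PS by 28.1 times for *Prm2*, 26.7 times for *Prm1*, 20.3 times for *Tnp2*, 19.7 times for *Tnp1*, 15.05 times for *Prm3*, 13.8 times for *H1fnt* and 8.97 times for *Hils1*. Reads on the 7 genes made up 0.839% and 0.886% of all gene reads in the RS samples and 0.0312% and 0.0528% in the PS samples, and the 4 samples had 9655405 to 12289694 reads on genes. *Prm3*, the gene with the fewest, still had 66 and 76 reads in PS. In bulk samples, fewer cells of a type and less RNA per cell cannot be told apart, and this holds for each PS level given here.

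The order of levels in RS was *Prm2* (4077 ± 467 RPKM, SD, n = 2), *Prm1* (3608 ± 45.7), *Tnp1* (2736 ± 198), *Tnp2* (2490 ± 139), *Hils1* (630 ± 83.0), *H1fnt* (358 ± 7.29) and *Prm3* (234 ± 11.4). Between *Prm2* and *Prm1* the gap of 469 RPKM was about the size of the larger SD (467), and between *Tnp1* and *Tnp2* the gap of 246 RPKM compared with an SD of 198, so neither pair was clearly ordered with 2 samples. *Tnp1* and *Tnp2* exchanged places when reads were not divided by length. In PS, *Prm2*, *Tnp1*, *Prm1* and *Tnp2* had means of 122 to 145 RPKM that differed by less than their SDs.

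Within a sample *Prm1* and *Prm2* kept close to equal levels. *Prm2* was at 0.972 and 1.14 times *Prm1* in PS and at 1.05 and 1.21 times in RS. The ratio of *Tnp1* to *Tnp2* was 1.31 and 1.04 in PS and 1.00 and 1.20 in RS, so that neither ratio separated the stages. *Prm1* was 7.34 and 9.87 times *Prm3* in PS and 15.9 and 15.1 times in RS, and *Hils1* was 3.02 and 2.51 times *H1fnt* in PS and 1.90 and 1.62 times in RS. The last 2 ratios did not overlap between stages, but the smallest two-sided p that an exact permutation test of 2 against 2 samples allows is 0.333.

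In PS, the 7 genes, other spermatid genes and some of the other gene lists were higher in the second sample, while other lists were lower. The second PS sample had 1.18 to 1.98 times the level of the first for the 7 genes, while the RS samples differed by 0.830 to 1.18 times. The summed RPKM of 8 late spermatid markers in PS was 8.88% of that in RS, with 1.37 times more in the second PS sample, and that of 11 round spermatid markers was 16.3%, with 1.28 times more. Summed RPKM in the second PS sample was 0.470 times the first for Sertoli, 0.750 for Leydig, 0.746 for peritubular and 0.747 for spermatogonial markers. For pachytene markers it was 0.987 times. The PS level of the 7 genes was 3.56% (*Prm2*) to 11.1% (*Hils1*) of the RS level. The part of spermatids among the PS in these values was not tested.

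Of the marker lists used to check the cells, 11 of 11 round spermatid and 8 of 8 late spermatid markers were higher in RS. Of 9 pachytene markers, 6 were lower and 3 not called: *Sycp1* (log2 fold change -0.38), *Ldhc* (-0.49) and *Ccna1* (0.37). Over all genes tested, 30.4% were called higher and 27.6% lower. Leydig cell markers were lower in RS for 6 of 6 genes, with summed RPKM of 729 and 547 in PS and 68.3 and 42.6 in RS, led by *Insl3*. Macrophage markers were higher for 5 of 5 tested genes, with sums of 1.76 and 2.47 in PS and 14.4 and 13.9 in RS. The call of *Cd14* was lost with DESeq2 and without the first PS sample or either RS sample. Sertoli markers had sums of 61.6 and 29.0 in PS and 32.2 and 18.4 in RS. The Sertoli (2 of 5 tested higher), peritubular (1 of 4 higher) and spermatogonial (3 of 6 higher) markers had no gene called lower, but the Sertoli calls were unstable: both were lost with DESeq2 and without the second PS sample, 1 of them without either RS sample or with limma on log2(RPKM + 1), and 1 Sertoli gene was called lower with library-total scaling, with the replicate block and without the second PS or the first RS sample. The call of the spermatogonial marker *Zbtb16* was lost with limma and without the second PS sample or either RS sample. Of the 5 red blood cell markers in the tables, 0 had enough reads to be tested. Neither deleted gene checks the dKO label, as no wild-type RNA is at hand: *Rnf8* had 2.09 to 4.88 RPKM and *Scml2* 0.649 to 1.72 over the 4 samples, and reads outside the deleted part would still be counted.

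The gene most like each of the 7 in level and pattern was sought among all other genes by Euclidean distance of log2(RPKM + 1) over the 4 RNA samples. *Smcp*, a sperm mitochondrial capsule protein, was nearest to *Tnp1*, *Tnp2*, *Prm1* and *Prm2*, at distances of 1.44 (*Tnp2*) to 2.49 (*Prm2*), with means of 95.6 ± 35.7 RPKM in PS and 1286 ± 67.7 in RS. *Cdrt4* was nearest to *Prm3* (distance 0.23), *Irgc1* to *Hils1* (0.17) and *St6galnac2*, a sialyltransferase, to *H1fnt* (0.18).

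Neighbouring genes did not share one direction. *1700027A15Rik*, a noncoding transcript that starts 137 bp from *Tnp1* and runs the other way, had 10.8 and 19.3 RPKM in PS and 339 and 372 in RS, a log2 fold change of 4.62 ± 0.25 (called higher, edgeR). By contrast, *Socs1*, an inhibitor of cytokine signalling whose start is 3119 bp from that of *Tnp2* on the same strand, had 2.34 and 3.37 RPKM in PS and 1.52 and 1.46 in RS, a log2 fold change of -1.02 ± 0.36 (adjusted p = 0.0344). On the other side of the cluster, *Rmi2*, a subunit of the BLM helicase complex, fell by 1.68 ± 0.42 on the log2 scale (adjusted p = 0.00802). Its counts were low, 45 and 43 reads in PS and 10 and 20 in RS. *Sgca*, which overlaps *Hils1*, had log2 fold change -1.59 ± 0.22, at 15.1 ± 2.91 RPKM in PS and 4.89 ± 0.688 in RS (SD, n = 2), a direction opposite to that of *Hils1*. *Ppp1r9b* was also lower (-1.59), *Col1a1* was higher (3.22) at 2.51 RPKM or less, *Samd14* was not called, *Zfp641* had too few reads to be tested, and *Olfr286* and *Olfr287*, odorant receptors near *H1fnt*, had no reads.

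The somatic and testis linker histones did not follow the spermatid ones. Of 9 listed genes, 4 passed the count filter, of which 0 were called higher and 1 lower, beside 30.4% and 27.6% of all genes tested. *H1fx* had 50.4 and 65.6 RPKM in PS and 39.1 and 34.9 in RS, a log2 fold change of -0.61 ± 0.18 (adjusted p = 0.0161), a call lost with upper-quartile scaling and without the second PS or the second RS sample. *Hist1h1t*, the testis H1 of spermatocytes, had 3.75 and 2.76 RPKM in PS and 2.27 and 2.70 in RS (log2 fold change -0.35 ± 0.33), *H1f0* 5.25 to 5.75 RPKM over the 4 samples, and *Hist1h1c* 1.24 RPKM or less. *H1foo*, *Hist1h1a* and *Hist1h1e* were under the filter, and *Hist1h1b* and *Hist1h1d* had no reads. Most clustered H1 genes make mRNA without a poly(A) tail. The libraries were labelled as poly(A) RNA, while the authors' methods describe purified total RNA and name no poly(A) selection. Any effect on the levels of these genes was not tested.

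Among 10 transcription regulators of late spermatid genes, 4 were higher in RS, 2 lower and 4 not called, with a median log2 fold change of 0.16. The shares over all genes tested were 30.4% higher and 27.6% lower. *Fhl5* (also ACT), the testis coactivator of CREM, had 20.2 and 18.2 RPKM in PS and 188 and 147 in RS (3.16 ± 0.17 on the log2 scale), and *Kif17*, a kinesin that controls where FHL5 is found in the cell, 13.2 and 19.2 RPKM in PS and 134 and 138 in RS (3.10 ± 0.19). *Crem* itself, the activator of many spermatid genes, had 62.0 and 64.3 RPKM in PS and 104 and 91.8 in RS, a change of 0.68 ± 0.13 that was no longer called without the first RS sample. Lower were *Kdm3a*, a histone H3K9 demethylase required for *Tnp1* and *Prm1* expression, at -1.49 ± 0.13, and *Taf7*, a TFIID subunit, at -1.37 ± 0.20. *Taf7l*, its germ cell paralog, was higher by 0.63 ± 0.16, a call lost when counts were scaled to library totals, with limma on log2(RPKM + 1) and without the second PS sample.

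Among 21 factors of histone exchange and nuclear condensation, 8 were higher, 8 lower and 5 not called (median log2 fold change -0.13). Of all genes tested, 30.4% were called higher and 27.6% lower. The largest increases were in *Tssk6*, a kinase needed for the histone-to-protamine transition, with 6.85 and 8.66 RPKM in PS and 150 and 146 in RS (4.30 ± 0.17 on the log2 scale), *Hmgb4* (3.67 ± 0.23), *Camk4*, a kinase that phosphorylates PRM2 (3.47 ± 0.21), and *Cdyl* (3.17 ± 0.21). Those of the list that were lower included *Parg*, which degrades poly(ADP-ribose), at -1.85 ± 0.19, and *Parp1*, which makes it, at -1.22 ± 0.12. The call of *Top2a*, among the 8, was lost with upper-quartile scaling and without the first PS or the first RS sample, and that of *Parp2* without the second RS sample. *Hspa2*, called lower, lost its call when only the row with the most reads stood for a gene. *Top2b*, called higher, lost its call with limma on log2(RPKM + 1). *Brdt*, the testis bromodomain protein that binds acetylated histones, had 114 to 126 RPKM in all 4 samples and did not reach the 1.5-fold change a call needs.

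Of 10 tested factors of mRNA storage and translation, 1 was higher, 4 lower and 5 not called (median -0.49). Among all genes tested, 30.4% were higher and 27.6% lower. *Papolb*, the testis poly(A) polymerase, rose by 0.80 ± 0.11 on the log2 scale. *Khdrbs1* (Sam68, -1.80 ± 0.13), *Dazap1* (-1.52 ± 0.13), *Boll* (-1.08 ± 0.13) and *Tarbp2*, a protamine RNA-binding protein (-0.60 ± 0.16, a call lost with upper-quartile scaling and without the second PS or the first RS sample), were lower. *Ybx2* (MSY2, which coats stored mRNAs) had 1086 and 1376 RPKM in PS and 902 and 948 in RS, also short of 1.5-fold.

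H3K27ac was found at the start sites of all 7 genes in all 4 wild-type samples. Its strength is given as fold enrichment, the fragments stacked at a summit over the background of the same sample. In PS it was already there, with summits of ordinary height. The strongest summit within 2 kb of the 7 start sites was at the 22.8th to 65.1st percentile of the start sites with a summit. In RS it reached percentiles 72.0 to 99.02. By width, the PS intervals over the starts ranged from among the widest of their sample to unremarkable. The interval over *Tnp2*, *Prm3* and *Prm2* had width ranks 25 and 37, that over *Hils1* 33 and 423 and that over *Tnp1* 125 and 8351. Those over *H1fnt* ranked 5434 and 7386 and those over *Prm1* 9611 and 12294.

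**Figure D3:**
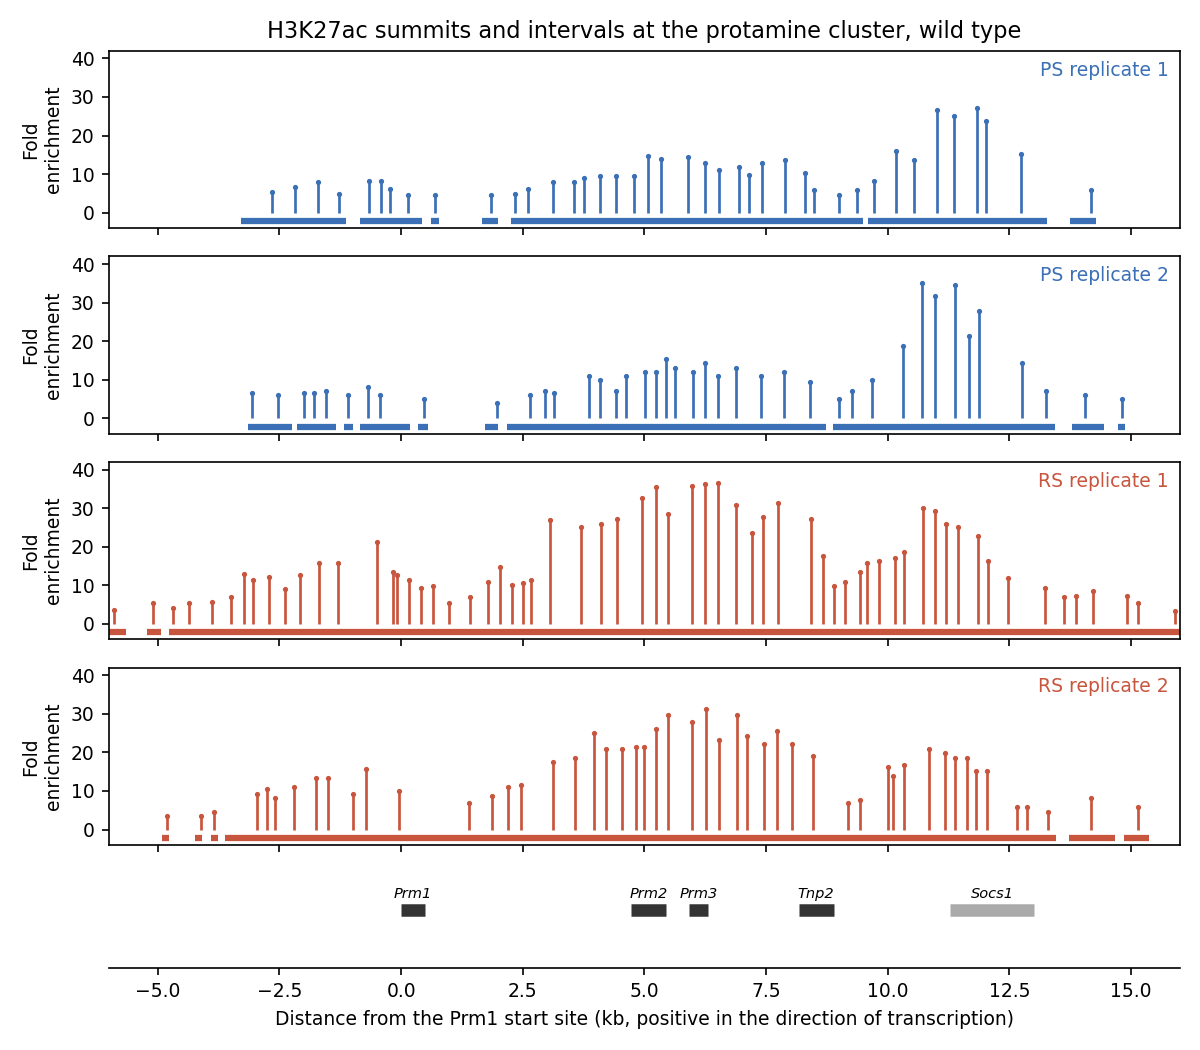
H3K27ac at the protamine cluster in wild-type PS (blue) and RS (red): each vertical line is a summit at its fold enrichment, and the thick bars under 0 are the deposited intervals; the x axis is the distance from the *Prm1* start site in kb, and the boxes at the bottom are genes, all transcribed to the right. In PS the signal is split into several intervals with the highest summits near *Socs1*, and in RS 1 interval covers *Prm1* to *Socs1*, with its highest summits, 36.6 and 31.3, between *Prm2* and *Tnp2*.

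The protamine cluster carried the widest H3K27ac interval of each RS sample. It spanned chr16:10780210-10801589 (21380 bp, 62 summits) in the first RS sample and chr16:10783369-10800443 (17075 bp, 45 summits) in the second, and held the start sites of *Prm1*, *Prm2*, *Prm3*, *Tnp2* and *Socs1*. In PS the same stretch was broken up. An interval of 7233 and 6554 bp, the 25th and 37th widest of its sample, covered the start sites of *Tnp2*, *Prm3* and *Prm2*, an interval of 3674 and 4565 bp lay over *Socs1*, and *Prm1* had a separate one of 1269 and 1039 bp. The widest PS intervals, 21827 and 16878 bp, lay on chromosome 17 over no RefSeq start site.

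Along the cluster, the summits of RS had the higher median in all 4 stretches examined. From the end of *Tnp2* to the start of *Prm2*, the median fold enrichment of the summits was 12.3 and 12.1 in PS and 31.1 and 24.4 in RS. From the start of *Prm2* to the end of *Prm1* it was 7.82 and 7.13 in PS and 11.2 and 17.4 in RS, with 70.1% and 67.9% of the bases inside an interval in PS and 100% in both RS samples. Over *Prm1* and the 2 kb upstream the median was 6.996 and 6.30 in PS and 13.4 in both RS samples. Between *Socs1* and *Tnp2* it was 10.9 and 14.3 in PS and 16.7 and 16.3 in RS, while the strongest summit there, 26.8 and 35.1 in PS and 30.1 and 20.9 in RS, overlapped between the stages. The highest summits of the cluster thus lay beside *Socs1* in PS and over *Tnp2*, *Prm3* and *Prm2* in RS.

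The 4 genes of the cluster share these summits and are not independent. For *Prm2* and *Prm3*, the strongest summit within 2 kb was 14.8 and 15.3 in PS and 36.6 and 31.3 in RS, the same summit for both genes in each sample. *Tnp2* had 13.6 and 14.3 in PS and the same 36.6 and 31.3 in RS. *Prm1*, at the other end, had 8.23 and 8.22 in PS and 21.2 and 15.7 in RS, the weakest start site of the cluster in each sample.

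Away from the cluster, *Hils1* had the strongest single summit of the 7 genes, 38.2, in the first RS sample, and 30.2 in the second, against 19.8 and 14.8 in PS. In all 4 samples this summit lay 167 to 305 bp downstream of its start. At *H1fnt* the values were 12.3 and 11.5 in PS and 31.3 and 24.4 in RS, with summits 231 to 689 bp downstream. *Tnp1* had 9.47 and 8.22 in PS and 21.6 and 19.7 in RS, and its start was covered by an interval of 9972 and 9470 bp in RS against 4802 and 1493 bp in PS. That RS interval took in the starts of both *Tnp1* and *1700027A15Rik*.

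**Figure D4:**
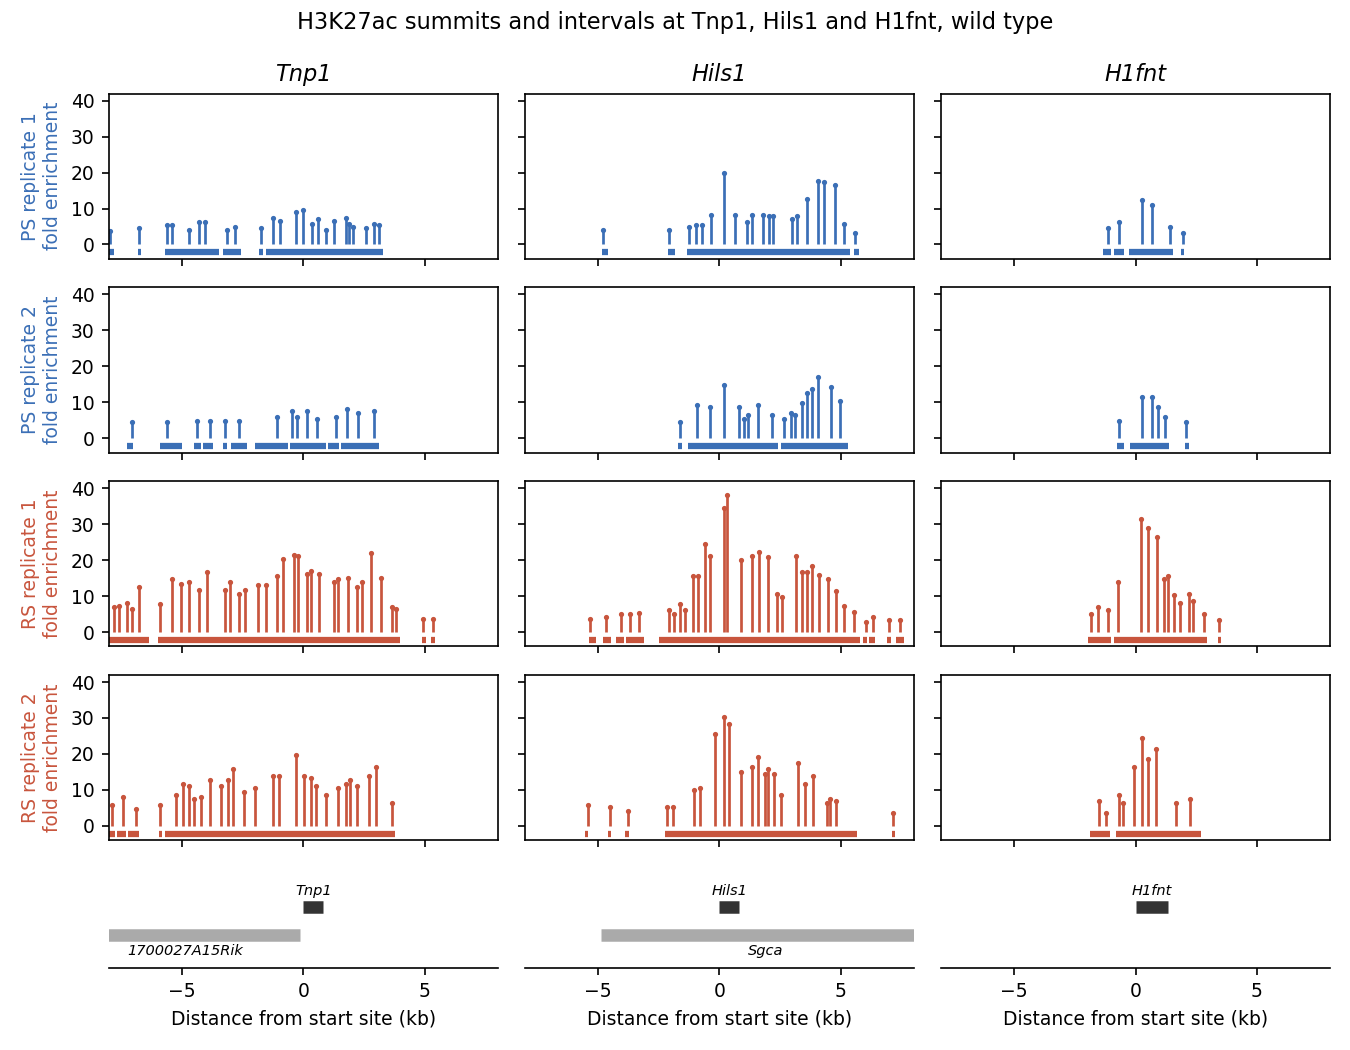
H3K27ac summits (vertical lines, fold enrichment) and intervals (thick bars under 0) around *Tnp1*, *Hils1* and *H1fnt* in wild-type PS (blue) and RS (red), by distance from the start site in kb, positive in the direction of transcription; dark boxes are the 3 genes and grey boxes *1700027A15Rik* and *Sgca*, which run the other way. Signal is present at each start site in PS and higher in RS, up to 38.2 at *Hils1*.

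For all 7 genes the strongest summit near the start was higher in both RS samples than in both PS samples, which was so for 14.5% of the 13643 start sites with a summit in at least 2 samples. The ratio of RS to PS means was narrow, 1.98 (*Hils1*) to 2.44 (*Tnp2*). The number of separate intervals within 2 kb of the 7 starts was 14 and 15 in PS and 5 and 5 in RS. The interval over the *H1fnt* start measured 1787 and 1606 bp in PS and 3846 and 3529 bp in RS, and that over *Hils1* 6693 and 3701 bp in PS and 8262 and 7906 bp in RS.

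**Figure D5:**
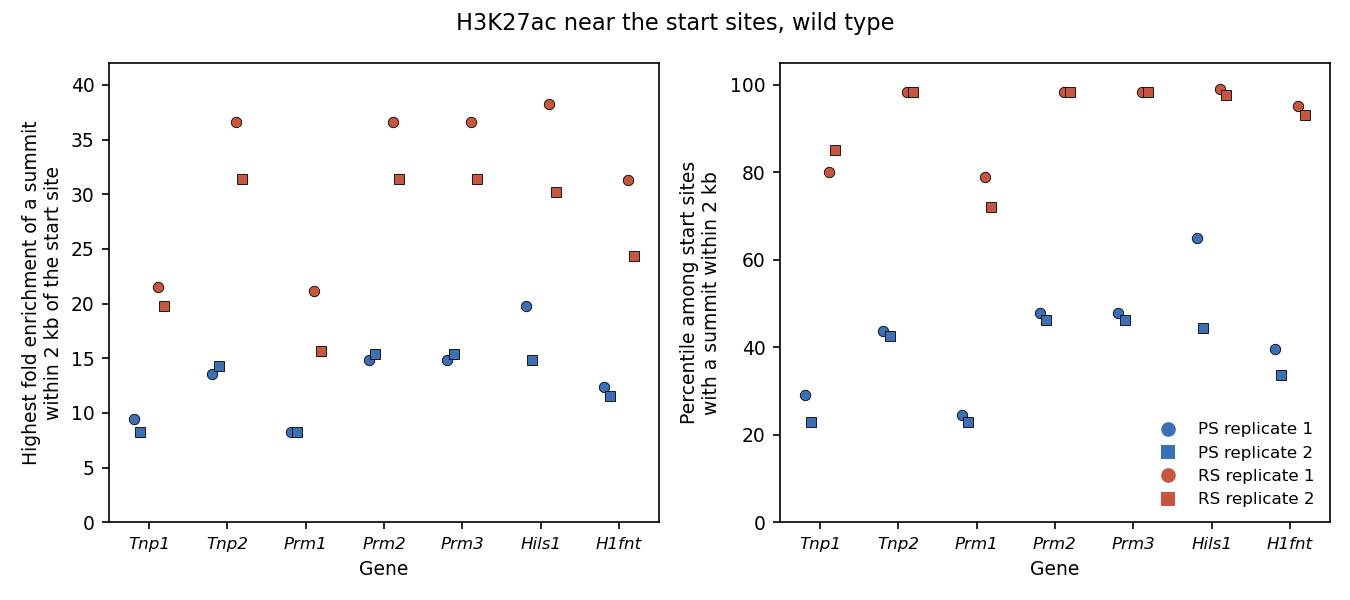
Left, the highest H3K27ac fold enrichment of a summit within 2 kb of each start site; right, its percentile among all start sites with a summit in that sample; circles are replicate 1 and squares replicate 2 of wild-type PS (blue) and RS (red). RS lies above PS for each gene, and *Tnp1* and *Prm1* are the lowest of the 7 in RS.

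In the test across all start sites (limma on log2(1 + fold enrichment), the strongest summit of any interval that reached within 2 kb), 6 of the 7 genes were called higher in RS, against 5.23% of the 13699 genes tested. The log2 differences were 1.92 ± 0.16 for *Prm1* (SE, adjusted p = 0.0154), 1.15 ± 0.18 for *Tnp1* (0.0218), 1.15 ± 0.18 for *H1fnt* (0.0240), 1.12 ± 0.15 for both *Prm2* and *Prm3* (0.0175) and 0.95 ± 0.22 for *Hils1* (0.0490), while the median of all genes tested was -0.43. The value of *Prm1* does not come from its own start: the RS interval of the cluster lent it the summits of 36.6 and 31.3 that lie beyond 2 kb, where its own were 21.2 and 15.7. *Tnp2* was not called, at 0.13 ± 0.19 (adjusted p = 0.627): in PS its window was reached by the *Socs1* interval, whose summits of 27.2 and 35.1 lie outside it. With only summits that themselves lie within 2 kb, a choice made after the data were seen, 7 of 7 were called, again against 5.23%, with *Tnp2* at 1.23 ± 0.15 (adjusted p = 0.0162) and *Prm1* at 1.06 ± 0.22 (0.0376). The interval-based calls rested on all 4 libraries: all were lost without either PS sample, and some without either RS sample. With 1 library left out, the interval-based difference was 1.81 to 2.03 for *Prm1* and 0.75 to 1.15 for *Hils1*. The values from summits within 2 kb only were not refitted without each library. The exact permutation test of a single gene cannot go below 0.333 with 2 samples a stage.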

How the data were processed

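The 7 genes, the gene lists and the tests were chosen with earlier results of these data known. The authors aligned reads to mm10. Per the labels, the submitters' processing notes name Bowtie 1.1.1 and MACS2 2.1.0.20140616 for ChIP-seq (ChIPmentation) and STAR 2.4.2a for RNA-seq, which was made from amplified cDNA with no strand information. The authors deposited unnormalized read counts per RefSeq row, from unique alignments divided among isoforms, and RPKM. The deposited peak lists were called per sample and give the pileup signal of each summit, its fold enrichment over a constant background (0.723 to 1.46 fragments) and its −log10 p and q values. ChIP read totals and input are not analysed here, so depth is known only from the backgrounds and the number of intervals (41095 to 74919).

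Counts were summed per gene and tested with edgeR 4.0.16 (TMM, quasi-likelihood test, at least 10 counts in at least 2 samples). The strongest summit, wherever it lay, of any interval that reached within 2 kb of a RefSeq start site of a gene, 0 where there was none, was tested as log2(1 + fold enrichment) with limma 3.58.1 (trend) over genes with an interval in at least 2 samples. Calls needed an adjusted p (Benjamini-Hochberg, over all genes tested) under 0.05 and a change over 1.5-fold. Alternatives were DESeq2 1.42.0, other scalings, filters, units, windows and peak thresholds, a block for the replicate number and omission of each sample in turn. R 4.3.3 and Python 3.11.15 were used, and both tests were also run on simulated data. The authors describe the H3K27ac samples as independent biological replicates and the dKO RNA samples as biological replicates. The labels do not say that samples of a group came from separate animals, so p-values measure the spread between these samples. Named genes were the 7 genes, the deleted genes, the 4 called genes of largest change in each pathway list and every linker histone, the nearest gene in pattern and genes starting within 50 kb. *Taf7l*, *Crem*, *Parg*, *Parp1*, *Top2a*, *Top2b*, *Hspa2*, *Parp2*, *Zbtb16*, *Cd14*, *Brdt*, *Tarbp2*, *Ybx2*, *Insl3*, *Sycp1*, *Ldhc* and *Ccna1* were added after their values were seen. Csda, Tesmin, Adgre1, Hbb-b2 and Hbb-bt had no row under these symbols. Promoter sequences are from RefSeq (GRCm38.p6), with all 7 genes matched.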

Additional observations from a re-analysis of the deposited data

How the results depend on the processing

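All 7 genes were called higher in RS at the RNA level in each of 12 alternatives, with log2 fold changes from 2.96 (*Hils1*) to 5.43 (*Prm2*), and the number of genes called over all genes ranged from 7147 to 9019, against 8497. Leaving out 1 RNA sample gave 7147 to 8769 genes. Without length scaling, *Tnp1* was at place 4 and *Tnp2* at place 3 in RS. Where a stage is left with 1 sample, that sample is assumed to vary as the other stage does.

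For H3K27ac, a window of 5 kb brought the *Socs1* summits into those of *Prm2* and *Prm3* (0.13, adjusted p = 0.625), and only summits within 2 kb raised *Tnp2* to 1.23. Quantile normalization moved the median of all genes tested from -0.43 to -0.04 and the calls from 717 higher and 2163 lower to 1805 and 1603, with 6 of the 7 genes called in both. Leaving out 1 ChIP sample gave 523 to 4761 genes called, against 2880 (540 without the first PS sample, 523 without the second, 4761 without the first RS sample and 745 without the second), and 0 to 5 of the 7 genes. The log2 differences were then 1.06 to 1.24 for *Tnp1*, -0.05 to 0.31 for *Tnp2*, 1.81 to 2.03 for *Prm1*, 1.01 to 1.23 for *Prm2* and *Prm3*, 0.75 to 1.15 for *Hils1* and 0.97 to 1.32 for *H1fnt*. *Tnp2* was at -0.0486 without the first PS sample. The cause was not tested.

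The labels do not say whether same-numbered samples of the 2 stages came from the same animal, and the numbers were not taken as pairs. The correlation of their deviations over genes was 0.225 for RNA (14647 genes) and 0.00257 for H3K27ac (13699 genes), with only 2 pairs. With the replicate block, 8723 genes were called for RNA and 2136 for H3K27ac, and 5 of the 7 genes instead of 6, *Hils1* missing the threshold at 0.95 (adjusted p = 0.0512). With 2 samples a stage and no read totals for the ChIP libraries, differences in H3K27ac strength beyond the scaling to each background could not be checked against depth.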
